A study of Drosophila melanogaster with 12 samples.

Results

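Gene expression was compared between bam mutant testes and bam mutant ovaries that carried an RNA interference control against mCherry, in Drosophila melanogaster. The comparison used 6 of the 12 libraries of the series, chosen by their labels: 3 of bam mutant male testis and 3 of mCherry RNAi female ovary. All of them carried the bam mutation, so ovaries and testes alike were mutant for bag of marbles (bam). mCherry is a fluorescent protein with no counterpart in the fly genome, and RNAi against it serves as a control for the RNAi procedure. The bam testes carried no RNAi according to the labels. The bam alleles and the driver of the RNAi were not given in the sources used here. Gonads came from flies 1 to 3 days old that were raised at 25 °C, and the ovaries came from virgin females. Each group held 3 biological replicates per the labels, and how many animals each replicate pooled was not stated. The series also held 3 bam ovaries without RNAi and 3 Sxl RNAi ovaries. The study compared bam males with bam females, and Sxl RNAi with mCherry RNAi in the bam background. Setting bam testes against the mCherry RNAi ovaries gives the sex difference with a second set of control ovaries. Sex, RNAi background and dissection differ together between these groups and cannot be told apart.

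The bam gene encodes a protein that germ cells of both sexes need to stop dividing as early cells and to differentiate. In its absence gonads fill with undifferentiated germ cells, so testes and ovaries can be compared at a like germline stage. In the female germline the RNA-binding protein Sex lethal (Sxl) is the main regulator of sexual identity, and Phf7 and CG15930 (Tdrd5l, Tudor domain containing protein 5-like) promote male identity. The gonads also hold somatic cells, such as hub and cyst cells in testes and terminal filament, cap, escort and follicle cells in ovaries, together with surrounding muscle, and each of these adds RNA to a whole-gonad library.

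Reads counted in genes numbered 16152230 to 18021046 in the bam testes and 21501840 to 25097969 in the mCherry RNAi ovaries. The libraries separated by tissue along the first principal component, which held 82% of the variance of log2 CPM. CPM are counts scaled to a common library size, and values below are CPM on a single scale over all 12 libraries, and tests used edgeR's quasi-likelihood fit with Benjamini-Hochberg adjustment over all genes tested, where an adjusted p below 0.05 was a call. Of 10022 genes tested, 4177 were called (41.7%), 2096 of them higher in bam testes (20.9%) and 2081 lower (20.8%). Counted by overlap alone, the 3 testes and 3 ovaries shared no range of CPM in 5545 genes (55.3%), with testes above in 27.1% and below in 28.3%. The median log2 fold change over all genes tested was 0.01. At more than a 2-fold change as well, 1053 genes were higher (10.5%) and 1594 lower (15.9%). The number of higher genes fell to 1316 when testis 1 was left out, to 1216 without mCherry ovary 1 and to 1330.0 without mCherry ovary 3.

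Within each group the libraries differed in how their counts followed transcript length. Spearman's rho between exon length and a library's deviation from its group mean, over 9825 genes, was 0.317, -0.713 and 0.659 in the testes, against 0.420, -0.524 and 0.401 in the mCherry RNAi ovaries. The second library of each group thus held relatively more reads from short transcripts. Across 4 equal classes of genes from shortest to longest, the median log2 fold change was 0.36, 0.17, -0.05 and -0.33, so long genes were lower in testes as a class. What part transcript length had in any single gene's difference was not tested.

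**Figure D1:**
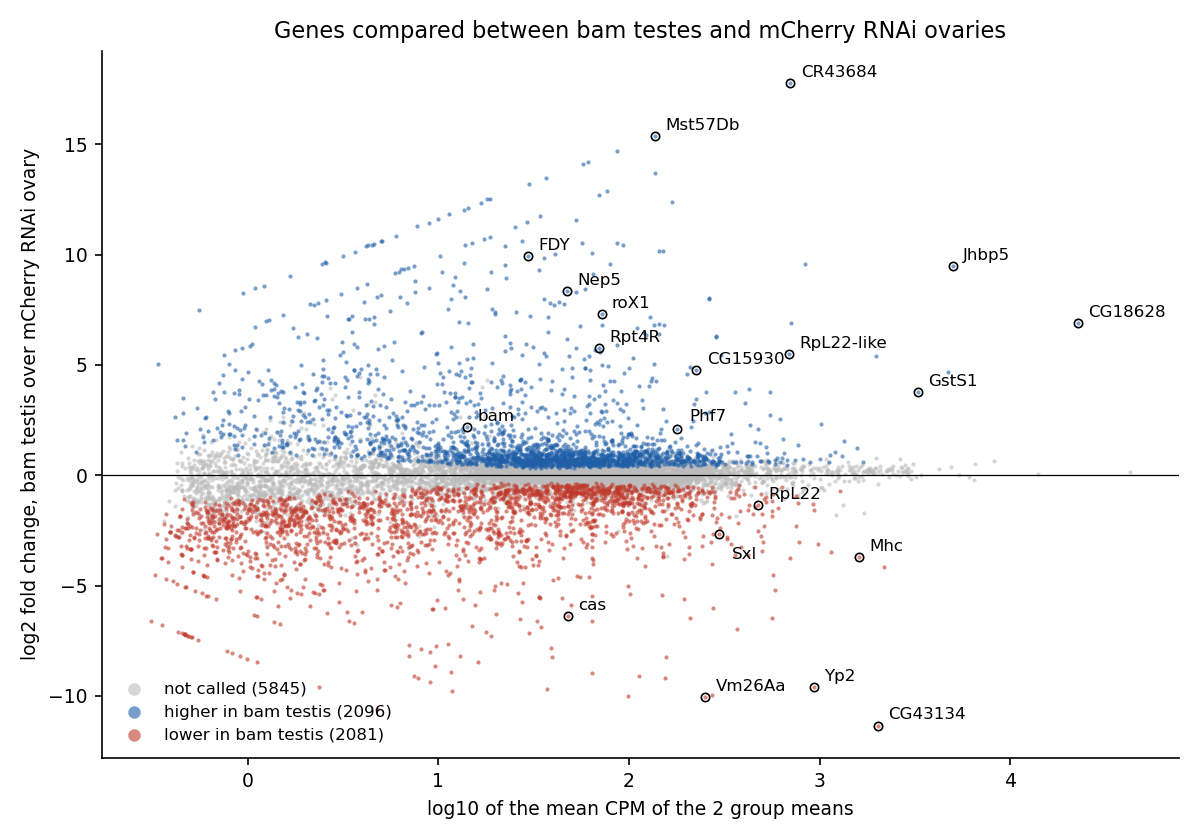
Each point is 1 of the 10022 genes tested, with log10 of the mean CPM of the group means on the x axis and the log2 fold change of bam testes over mCherry RNAi ovaries on the y axis. Blue points are the 2096 higher genes, red points the 2081 lower genes and grey points the rest, and ringed genes are described in the text; CG18628 and Jhbp5 stand at the upper right, Vm26Aa and CG43134 at the bottom.

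Of the genes known to set germline sex, CG15930 and Phf7 were higher in the testes and Sxl was lower. Of 8 early male germline genes tested, 5 were higher in bam testes and none lower, with a median log2 fold change of 1.596. Of 4 female germline factors 1 was higher and 2 lower, and of 8 genes of the somatic sex determination hierarchy none was higher and 4 lower. Sxl is counted among the lower genes of both lists.

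Germ cell transcripts were present in the libraries of both sexes. The gene zpg, which encodes the gap junction protein of germ cells, had 254, 253 and 235 CPM in testes and 196, 161 and 208 CPM in ovaries and did not pass the test (adjusted p = 0.0613), though it did in DESeq2 (adjusted p = 0.0243).

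CG15930, whose product carries a Tudor domain and promotes male germline identity, lies at chrX:5315130-5317295 on the minus strand in the BDGP6 annotation. CG15930 had 420.5, 489 and 395 CPM in the testes, against 13.5, 17.1 and 18.4 CPM in the mCherry RNAi ovaries. Every testis stood far above every ovary, and the 3 testes lay close together (log2 fold change 4.75 ± 0.19 (SE), adjusted p = 2.12e-05). The difference was 26.8-fold. Per kilobase of exon, CG15930 averaged 231 CPM in testes and 8.68 CPM in the mCherry RNAi ovaries.

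Phf7, a chromatin reader that promotes male fate in germ cells, had 297, 278 and 288 CPM in testes, against 69.0, 56.9 and 79.6 CPM in ovaries. The testis values were nearly equal and none of them approached the ovary values (log2 fold change 2.09 ± 0.17 (SE), adjusted p = 2.08e-04). The gene tut, whose RNA-binding product works with Bam in male germ cells, had 41.6, 46.4 and 35.7 CPM in testes, against 14.1, 14.0 and 14.5 CPM in ovaries, with no overlap (log2 fold change 1.55 ± 0.12 (SE), adjusted p = 1.87e-04). TrxT, a testis thioredoxin, stayed low in both groups at 2.75, 2.61 and 4.09 CPM in testes and 0.879, 1.28 and 0.913 CPM in ovaries. All testes were above all ovaries for TrxT, and the difference passed the test (log2 fold change 1.64 ± 0.34 (SE), adjusted p = 0.00941). In these bulk libraries fewer cells of a type and less RNA per cell cannot be told apart, here and in all results that follow.

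The bam transcript itself had 21.3, 27.4 and 21.1 CPM in testes, against 5.85, 4.10 and 5.52 CPM in ovaries (log2 fold change 2.18 ± 0.19 (SE), adjusted p = 2.93e-04). It was therefore present in each library and higher in every testis. Without the nature of the allele, its level does not check the mutation.

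Sxl, at chrX:7074550-7098053, had 64.1, 47.6 and 124 CPM in testes, against 501, 511 and 534 CPM in the mCherry RNAi ovaries. The third testis was the highest of the testes by more than the ovaries differed among themselves, and still lay well below every ovary (log2 fold change -2.68 ± 0.39 (SE), adjusted p = 0.00236). Sxl is transcribed in both sexes and is spliced so that only females make the full protein, and gene counts do not separate these splice forms. The transcripts of otu, a deubiquitinase needed by female germ cells, were lower in testes, with 36.4, 27.4 and 47.9 CPM in testes, against 83.9, 61.1 and 94.9 CPM in ovaries (log2 fold change -1.07 ± 0.27 (SE), adjusted p = 0.0197). That call was lost without testis 1 (adjusted p = 0.0549), without mCherry ovary 1 (adjusted p = 0.0659) and without mCherry ovary 3 (adjusted p = 0.0644). The gene stil, which female germ cells need to survive, went the other way. It had 110.3, 148 and 103 CPM in testes and 40.7, 42.8 and 45.5 CPM in ovaries, with every testis above every ovary (log2 fold change 1.496 ± 0.15 (SE), adjusted p = 5.62e-04). The transcription factor gene ovo had 139.9, 71.5 and 215 CPM in testes and 352, 261 and 432 CPM in ovaries with no overlap, and it did not pass the test (adjusted p = 0.0536). It did pass without testis 2 (adjusted p = 0.0297), without testis 3 (adjusted p = 0.0122) and in DESeq2 (adjusted p = 0.00754).

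In the sex determination hierarchy, tra, a splicing factor under Sxl, had 10.05, 13.4 and 13.0 CPM in testes and 30.5, 24.5 and 22.2 CPM in ovaries (log2 fold change -1.07 ± 0.19 (SE), adjusted p = 0.00528). Its downstream targets dsx and fru, both transcription factor genes, were lower in testes as well. For dsx the values were 18.1, 19.4 and 31.5 CPM in testes and 61.5, 45.7 and 68.4 CPM in ovaries (log2 fold change -1.32 ± 0.28 (SE), adjusted p = 0.00981), and for fru 8.31, 4.76 and 13.6 CPM in testes and 36.8, 24.4 and 40.9 CPM in ovaries (log2 fold change -1.89 ± 0.41 (SE), adjusted p = 0.0117). In all 3 genes no testis reached the lowest ovary. Of 10 genes for cofactors of Sxl and the m6A writer complex, 2 were higher (20%, against 20.9% of all genes tested) and none was lower. The higher genes were Hakai, with a log2 difference of 0.57 ± 0.18 (SE, adjusted p = 0.0383), and Mettl14, with 0.48 ± 0.14 (SE, adjusted p = 0.0329). Both calls were lost with upper-quartile scaling and without testis 1, testis 2, mCherry ovary 1 or mCherry ovary 3, where the adjusted p was 0.0674 to 0.140 for Hakai and 0.0701 to 0.125 for Mettl14.

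**Figure D2:**
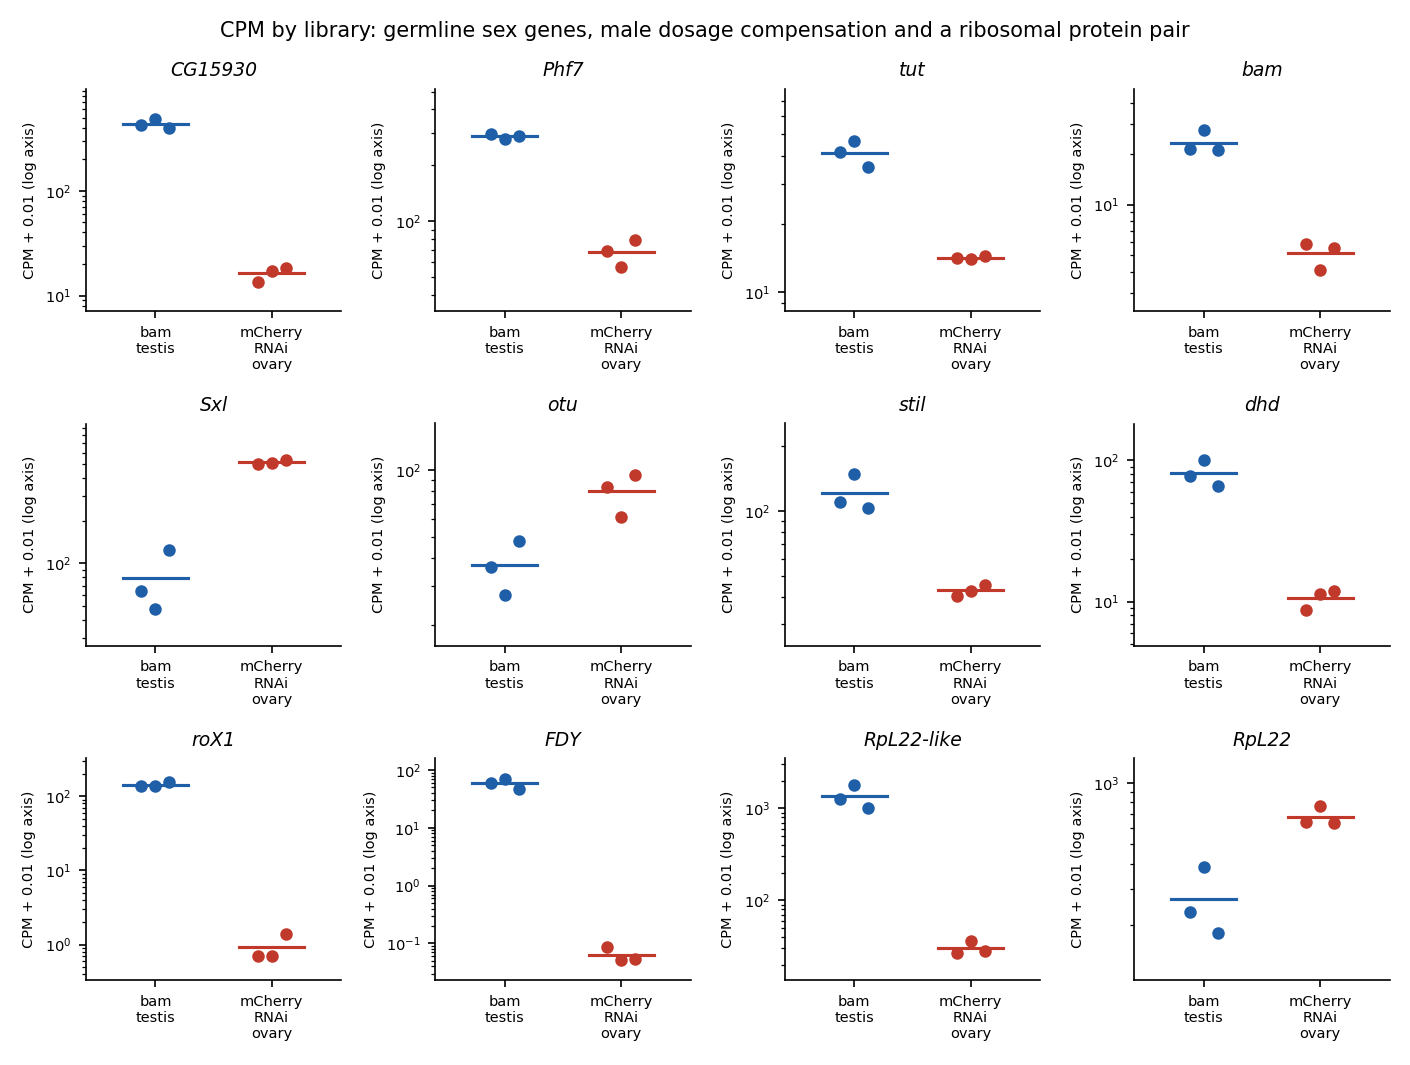
CPM by library for germline sex genes, dosage compensation RNA and a pair of ribosomal protein genes, with bam testes in blue on the left and mCherry RNAi ovaries in red on the right. Each point is a library, each bar is a group mean, and the y axis is CPM + 0.01 on a log scale; CG15930, Phf7, tut, roX1 and RpL22-like were higher in every testis than in any ovary, and Sxl and RpL22 were lower in every testis.

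Male flies raise transcription of their X chromosome about to the female level through a complex of MSL proteins and the noncoding roX RNAs. Of 8 genes of this machinery 3 were higher in bam testes and none lower; 5 were higher once the length trend was removed over all 6 libraries. The roX1 RNA had 136, 136 and 156 CPM in testes, against 0.688, 0.683 and 1.39 CPM in ovaries (log2 fold change 7.30 ± 0.33 (SE), adjusted p = 2.90e-05). For roX2 the values were 5.86, 9.99 and 5.55 CPM in testes and 0.459, 0.768 and 0.304 CPM in ovaries (log2 fold change 3.78 ± 0.44 (SE), adjusted p = 9.26e-04). The testes shared no value with the ovaries for either RNA, and roX1 was barely detected in all 3 ovaries. The gene msl-3, a chromodomain subunit of the complex, was higher in testes at 60.6, 57.7 and 53.5 CPM, against 31.6, 33.8 and 36.2 CPM in ovaries (log2 fold change 0.77 ± 0.12 (SE), adjusted p = 0.00280). The subunit gene msl-2, whose translation Sxl blocks in female somatic cells, had 23.1, 12.6 and 24.5 CPM in testes and 16.7, 14.0 and 14.1 CPM in ovaries. Its groups overlapped and it did not pass the test (adjusted p = 0.241), which it did without testis 2 (log2 fold change 0.71, adjusted p = 0.0120).

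Among 12 genes of the Y chromosome, FDY was the only gene with enough reads to be tested. FDY had 60.8, 70.5 and 46.3 CPM in testes, against 0.0764, 0.0427 and 0.0435 CPM in the mCherry RNAi ovaries, which held 4 reads in all. FDY is a near copy of vig2 on chromosome 3R, which was looked at after the values were seen. vig2 had 771, 942 and 655 CPM in testes and 676, 699 and 671 CPM in ovaries, and how reads were shared between the copies is uncertain. Of the other Y genes, 6 had no read in any testis and none exceeded 0.262 CPM in a library. Genes of the Y chromosome are known to be transcribed in spermatocytes.

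Germ cells use their own paralogs of several general genes, and a group of these separated the libraries by large factors. Among 20 tested genes of paired or germline ribosomal proteins, 5 were higher in bam testes (25%) and 1 lower (5%), with a median of 0.10. The shares over all genes tested were 20.9% and 20.8%, so the higher count was near that of all genes. With the length trend removed within groups 8 of them were higher. RpL22-like, at chr2R:23246610-23247893, had 1248, 1784 and 1005 CPM in testes, against 26.6, 36.5 and 27.9 CPM in ovaries (log2 fold change 5.47 ± 0.29 (SE), adjusted p = 4.77e-05). Its paralog RpL22 had 232, 387 and 184 CPM in testes, against 641, 769.8 and 634 CPM in ovaries (log2 fold change -1.35 ± 0.27 (SE), adjusted p = 0.00825). The order of the paralogs was reversed between the tissues. Per kilobase of exon, RpL22-like averaged 1092 CPM and RpL22 243 CPM in testes, whereas in ovaries RpL22-like averaged 24.6 CPM and RpL22 619.6 CPM. The RpL22 call was lost without testis 1 (adjusted p = 0.0589), while that of RpL22-like held in each fit tried.

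RpL37-2 had 104, 179.5 and 73.3 CPM in testes, against 4.24, 7.94 and 5.43 CPM in ovaries (log2 fold change 4.33 ± 0.40 (SE), adjusted p = 3.58e-04). RpS10a had 174, 274 and 127 CPM in testes, against 49.2, 72.6 and 48.1 CPM in ovaries (log2 fold change 1.75 ± 0.31 (SE), adjusted p = 0.00481). In both genes the lowest testis was above the highest ovary, and testis 2 was the highest library. RpS19b was higher, at a log2 difference of 1.30 ± 0.27 (SE, adjusted p = 0.01005). A wider set of 78 tested cytosolic ribosomal protein genes left out RpL22-like and RpL37-2. In that set 3 were higher and 1 lower, with a median of 0.17.

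Among other paralogs, Rpt4R, a relative of the proteasome base ATPase Rpt4, had 132, 176 and 103 CPM in testes, against 2.33, 2.60 and 2.56 CPM in ovaries (log2 fold change 5.78 ± 0.23 (SE), adjusted p = 2.12e-05). The ovaries lay within a narrow range close to 0, and every testis was far above it. Rpt3R was higher to a smaller degree, with 65.5, 83.5 and 66.8 CPM in testes and 33.8, 39.0 and 39.2 CPM in ovaries (log2 fold change 0.96 ± 0.13 (SE), adjusted p = 0.00202), and Rpt6R was lower, with 2.45, 3.00 and 3.25 CPM in testes and 8.33, 8.45 and 9.65 CPM in ovaries (log2 fold change -1.58 ± 0.22 (SE), adjusted p = 0.00187). Of the 13 testis-type proteasome genes 9 had too few reads to be tested, and 7 had no read in any testis.

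TfIIA-S-2, a paralog of the small subunit of the basal factor TFIIA that also acts at piRNA clusters, had 45.2, 76.5 and 30.6 CPM in testes, against 2.94, 4.27 and 2.91 CPM in ovaries (log2 fold change 3.90 ± 0.36 (SE), adjusted p = 3.68e-04). The chaperonin gene Hsp60C had 27.99, 45.6 and 37.4 CPM in testes, against 1.30, 0.299 and 1.74 CPM in ovaries (log2 fold change 5.06 ± 0.55 (SE), adjusted p = 7.14e-04). Every testis stood well above every ovary for both genes. The thioredoxin gene dhd, known as a maternal factor that remodels sperm chromatin in the egg, was also higher in testes, at 77.0, 100.7 and 65.5 CPM, against 8.79, 11.3 and 11.9 CPM in ovaries (log2 fold change 2.94 ± 0.19 (SE), adjusted p = 9.13e-05). The eIF4E family held 2 higher genes of 9 tested and none lower, 22.2% against 20.9% of all genes tested, with 1 higher without testis 1, testis 3 or any single mCherry RNAi ovary. Among them eIF4E3, needed for male meiosis, was higher, at a log2 difference of 1.32 ± 0.22 (SE, adjusted p = 0.00385). Of 8 tubulin genes 3 were higher and 2 lower, and the higher count was 1 without testis 1 or without any mCherry RNAi ovary, and the lower count 1 without mCherry ovary 1. The gene alphaTub85E, a variant alpha tubulin, had 3.35, 3.61 and 3.82 CPM in testes and 0.382, 0.128 and 0.565 CPM in ovaries (log2 fold change 3.33 ± 0.48 (SE), adjusted p = 0.00229). The germline gamma tubulin gene gammaTub37C had 8.61, 5.23 and 10.4 CPM in testes and 24.8, 25.1 and 28.6 CPM in ovaries (log2 fold change -1.66 ± 0.28 (SE), adjusted p = 0.00434).

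Spermatid genes were mostly at or near 0, whereas the list of the meiotic arrest complex summed to more CPM in both groups. Of 26 spermatid genes 4 could be tested and 13 had no read in any testis, and the list summed to 7.84, 10.1 and 8.44 CPM in testes and 21.97, 15.5 and 14.4 CPM in ovaries. Mst87F, a sperm tail protein gene, had 1.14, 2.00 and 1.78 CPM in testes and 0.0764, 0.0854 and 0 CPM in ovaries (log2 fold change 4.76 ± 0.65 (SE), adjusted p = 0.00179), so that it was above the ovaries at a low level. The others called were lower in testes, r-cup at -1.39 ± 0.25 (SE, adjusted p = 0.00577) and S-Lap1 at -1.27 ± 0.34 (SE, adjusted p = 0.0235). The S-Lap1 call was lost in DESeq2, with no filter, with both second libraries left out, and without testis 1, testis 3 or any single mCherry RNAi ovary (adjusted p 0.0509 to 0.0844). Among 4 tested genes of the testis TAFs and the bromodomain genes used with them, 3 were higher. The TAF4 paralog nht had 2.39, 4.46 and 2.83 CPM in testes, against 0.382, 0.299 and 0.565 CPM in ovaries (log2 fold change 2.94 ± 0.38 (SE), adjusted p = 0.00150). The TAF6 paralog mia had 31.3, 30.6 and 31.9 CPM in testes and 17.5, 16.8 and 21.8 CPM in ovaries (log2 fold change 0.76 ± 0.14 (SE), adjusted p = 0.00653). The testis bromodomain gene tbrd-3 had 0.957, 1.23 and 0.681 CPM in testes and 0.191, 0.128 and 0 CPM in ovaries (log2 fold change 3.05 ± 0.72 (SE), adjusted p = 0.0153), a call lost without mCherry ovary 2 (adjusted p = 0.0515). In each of the 3 genes the testes and ovaries did not overlap, and nht and tbrd-3 were scarce throughout. Of 9 genes of the testis meiotic arrest complex tMAC and its partners 3 were higher and 2 lower; 5 were higher with all 12 libraries in 1 fit and with the length trend removed within groups, and 1 was lower without testis 1, testis 3, mCherry ovary 1 or mCherry ovary 2. The list summed to 333 to 422 CPM in testes and 269.6 to 291 CPM in ovaries. Most of each sum came from Caf1-55, with 206, 237 and 187 CPM in testes and 165, 159 and 181 CPM in ovaries. Among subunits of the complex tomb was higher, at a log2 difference of 1.03 ± 0.20 (SE, adjusted p = 0.00667) and vis at 1.15 ± 0.17 (SE, adjusted p = 0.00245), while wuc was lower, at -2.19 ± 0.49 (SE, adjusted p = 0.0126). Of 8 other spermatocyte genes 2 were higher and 3 lower, and none was lower among those left by a filter at 1 CPM in 3 libraries. Without mCherry ovary 1 the lower count was 1. Among them Taf12L, a TAF12 paralog, had 16.9, 11.4 and 30.7 CPM in testes and 0.650, 1.07 and 0.695 CPM in ovaries (log2 fold change 4.64 ± 0.49 (SE), adjusted p = 6.39e-04), with no overlap. The meiotic Cdc25 gene twe was higher, at a log2 difference of 0.94 ± 0.16 (SE, adjusted p = 0.00493).

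The piRNA pathway silences transposons in germ cells and the somatic cells around them. Of 10 nuage genes none was higher and 2 lower (20%), and of 13 biogenesis genes 1 was higher (7.69%) and 2 lower (15.4%). Of 11 genes of nuclear silencing and cluster transcription 2 were higher (18.2%) and 1 lower (9.09%). The shares over all genes tested were 20.9% higher and 20.8% lower. The medians of the nuage, biogenesis and nuclear lists were -0.16, 0.06 and 0.11. The gene piwi, the nuclear Argonaute of germ cells and gonadal soma, had 329.9, 240.0 and 354 CPM in testes, against 752, 632 and 818 CPM in ovaries (log2 fold change -1.23 ± 0.22 (SE), adjusted p = 0.00584). The helicase gene armi, which acts in loading Piwi, had 273, 183 and 279 CPM in testes, against 684, 654 and 690.1 CPM in ovaries (log2 fold change -1.44 ± 0.22 (SE), adjusted p = 0.00316). For both genes every testis lay well below every ovary. The endonuclease gene zuc was higher in testes, at 58.6, 81.1 and 55.6 CPM, against 28.1, 29.5 and 32.5 CPM in ovaries (log2 fold change 1.13 ± 0.15 (SE), adjusted p = 0.00183), as was the Piwi cofactor gene arx, at 41.9, 56.0 and 36.3 CPM, against 18.2, 22.2 and 20.3 CPM (log2 fold change 1.15 ± 0.17 (SE), adjusted p = 0.00246). The gene moon, whose product recruits TFIIA-S-2 to piRNA clusters, was lower, with 8.61, 10.2 and 9.06 CPM in testes and 18.2, 20.7 and 16.1 CPM in ovaries (log2 fold change -0.97 ± 0.17 (SE), adjusted p = 0.00460). TfIIA-S-2 and moon thus differed in opposite directions. The count of lower nuage genes was 0 without testis 1, mCherry ovary 1 or mCherry ovary 3 and 1 without mCherry ovary 2. Of the nuage genes AGO3, a partner of Aubergine in the ping-pong cycle, was lower, at a log2 difference of -0.79 ± 0.24 (SE, adjusted p = 0.0382), a call lost without testis 1 (adjusted p = 0.108) or any single mCherry RNAi ovary (adjusted p 0.0802 to 0.0999). The helicase gene spn-E was lower, at a log2 difference of -1.03 ± 0.28 (SE, adjusted p = 0.0255), a call lost without testis 1 (adjusted p = 0.0615), mCherry ovary 1 (adjusted p = 0.0783) or mCherry ovary 3 (adjusted p = 0.0807). Among 15 genes with Tudor domains 2 were higher, CG15930 and Kots, and spn-E was the only one lower; Kots had a log2 difference of 0.62 ± 0.17 (SE, adjusted p = 0.0237), a call lost without testis 1 (adjusted p = 0.0897), mCherry ovary 1 (adjusted p = 0.0877) or mCherry ovary 2 (adjusted p = 0.0675).

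Genes of DNA replication that were called stood higher in bam testes than in mCherry RNAi ovaries. Of 17 replication genes 9 were higher (52.9%, against 20.9% of all genes tested) and none lower, with a median of 0.44. Leaving out testis 1 left 4 higher, and leaving out mCherry ovary 1 left 5. In DESeq2 1 was lower, and with the length trend removed over all 6 libraries 2 were. Against the bam ovaries without RNAi 5 were higher and 2 lower, with a median of 0.12, and none was called between the control sets. The licensing inhibitor geminin had 178, 215 and 155 CPM in testes, against 77.4, 83.3 and 83.7 CPM in ovaries (log2 fold change 1.18 ± 0.15 (SE), adjusted p = 0.00123). Its target dup, the fly Cdt1, had 134, 129 and 129 CPM in testes, against 70.7, 55.9 and 76.7 CPM in ovaries (log2 fold change 0.96 ± 0.16 (SE), adjusted p = 0.00357). Orc5, a subunit of the origin recognition complex, was higher, at a log2 difference of 0.81 ± 0.13 (SE, adjusted p = 0.00295) and the replication factor gene Mcm10 at 0.76 ± 0.13 (SE, adjusted p = 0.00483). In geminin and dup every testis was above every ovary. Of 22 cell cycle genes 6 were higher and none lower, 27.3% against 20.9% of all genes tested, with 3 higher without testis 1 or mCherry ovary 3 and 2 without mCherry ovary 1. Cdk2, the kinase of S phase entry, had 63.1, 71.7 and 59.5 CPM in testes and 33.7, 25.5 and 35.6 CPM in ovaries (log2 fold change 1.05 ± 0.15 (SE), adjusted p = 0.00226).

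Of 21 genes of meiosis and recombination 4 were higher and 7 lower, with a median of -0.08. These counts depended on single libraries: the higher count was 2 without testis 1 or any mCherry RNAi ovary, and the lower count was 3 without testis 1, 3 without mCherry ovary 1, 4 without mCherry ovary 2 and 2 without mCherry ovary 3. Among the calls that held in every such fit were the cohesion protector gene mei-S332, higher, at a log2 difference of 0.78 ± 0.15 (SE, adjusted p = 0.00736), the chromokinesin gene nod, at -1.41 ± 0.23 (SE, adjusted p = 0.00396), and the crossover factor gene nenya, at -1.12 ± 0.19 (SE, adjusted p = 0.00468).

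Of 19 oocyte and maternal genes 2 were higher and 7 lower, with a median of -0.63, and 11 were lower without testis 3. The posterior determinant gene osk had 0.478, 0.307 and 0.629 CPM in testes, against 3.40, 1.75 and 3.48 CPM in ovaries (log2 fold change -2.54 ± 0.44 (SE), adjusted p = 0.00463). The gene plu, which works in the early embryo's S-M cycles, had 1.20, 1.31 and 0.576 CPM in testes, against 5.01, 5.21 and 6.39 CPM in ovaries (log2 fold change -2.43 ± 0.35 (SE), adjusted p = 0.00222). Both were scarce in the ovaries too and lower still in each testis. The EGFR ligand gene grk had 13.2, 13.5 and 13.4 CPM in testes, against 26.7, 27.2 and 27.1 CPM in ovaries (log2 fold change -0.997 ± 0.12 (SE), adjusted p = 0.00113), with nearly the same value in all libraries of a group. The Polo inhibitor gene mtrm was higher in testes, at 11.01, 9.91 and 9.12 CPM, against 2.06, 1.75 and 2.78 CPM in ovaries (log2 fold change 2.204 ± 0.25 (SE), adjusted p = 7.97e-04). vls, a component of the methylosome, was higher as well, at 0.98 ± 0.15 (SE, adjusted p = 0.00305). The translational repressor gene bru1 was lower, at -1.25 ± 0.27 (SE, adjusted p = 0.0111).

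Most genes of the somatic gonad lists that were called were lower in testes. Of 17 transcription factor genes of the somatic gonad 1 was higher and 12 lower, with a median of -1.62. The gene cas, a factor of follicle cells, had 0.957, 0.461 and 1.73 CPM in testes, against 105, 88.1 and 89.7 CPM in ovaries (log2 fold change -6.40 ± 0.42 (SE), adjusted p = 9.13e-05). The factor gene tj, used by somatic cells of both gonads, had 36.7, 27.4 and 34.3 CPM in testes, against 131, 131 and 195 CPM in ovaries (log2 fold change -2.19 ± 0.23 (SE), adjusted p = 6.01e-04). The gap between the groups was far wider in cas, which was close to 0 in testes, than in tj, which stayed well detected there. Lmx1a, a factor of terminal filaments, had 1 read over the 3 testes and 2.102, 1.79 and 2.74 CPM in ovaries, which gave 108-fold more in ovaries with a 95% exact counting interval of 19.4 to 4263. The gene so was lower, at a log2 difference of -1.71 ± 0.15 (SE, adjusted p = 2.88e-04) and eya, its partner, at -1.25 ± 0.20 (SE, adjusted p = 0.00342). Abd-B, the Hox gene of the posterior body and the male gonad, was the only one higher, at 0.79 ± 0.23 (SE, adjusted p = 0.0300). Its call was lost without testis 1 (adjusted p = 0.111), without mCherry ovary 3 (adjusted p = 0.0719) and with the length trend removed within groups (adjusted p = 0.0546).

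Of 15 hub and cyst cell genes 3 were higher and 9 lower, with a median of -1.23. Several of these genes are also used by follicle cells. The neprilysin peptidase gene Nep5 had 117, 94.7 and 73.4 CPM in testes, against 0.420, 0.299 and 0.130 CPM in ovaries (log2 fold change 8.35 ± 0.38 (SE), adjusted p = 3.19e-05). Nep4, of the same family, had 26.2, 24.0 and 17.1 CPM in testes, against 1.15, 2.65 and 1.96 CPM in ovaries (log2 fold change 3.56 ± 0.35 (SE), adjusted p = 4.71e-04). Nep5 was almost without reads in the ovaries and well detected in each testis. The adhesion gene Fas3 was lower, with 141, 148 and 114 CPM in testes and 633, 588 and 610.3 CPM in ovaries (log2 fold change -2.17 ± 0.15 (SE), adjusted p = 1.10e-04).

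Of 16 escort and cap cell genes 4 were higher and 11 lower, with a median of -1.41. The list's summed level was nevertheless higher in testes, at 7956, 9811 and 6520 CPM, against 2579.8, 2528 and 2409 CPM in ovaries. GstS1, a glutathione S-transferase, made up most of that sum, with 6018, 7437 and 4884 CPM in testes and 473, 405 and 495 CPM in ovaries (log2 fold change 3.75 ± 0.24 (SE), adjusted p = 7.37e-05). The lipid phosphate phosphatase gene wun2 was lower, with 1.97, 3.00 and 3.67 CPM in testes and 21.1, 23.2 and 22.2 CPM in ovaries (log2 fold change -2.92 ± 0.26 (SE), adjusted p = 3.06e-04).

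Of 18 genes of the Hedgehog and Wnt pathways 3 were higher, 7 lower and 8 not called, and 5 were higher with the length trend removed over all 6 libraries. The ligand gene hh had 27.4, 28.8 and 14.8 CPM in testes, against 6.19, 5.59 and 8.17 CPM in ovaries (log2 fold change 1.84 ± 0.28 (SE), adjusted p = 0.00282). The ligand gene Wnt6 had 22.6, 21.98 and 15.3 CPM in testes, against 7.11, 5.59 and 8.26 CPM in ovaries (log2 fold change 1.53 ± 0.22 (SE), adjusted p = 0.00212). Both were higher in every testis, as was the third gene called higher, the pathway inhibitor Su(fu), at a log2 difference of 0.60 ± 0.12 (SE, adjusted p = 0.00856), a call lost without mCherry ovary 1 (adjusted p = 0.0508). Another ligand gene, Wnt4, named after its values were seen, was lower, at -1.41 ± 0.32 (SE, adjusted p = 0.0132). The Hedgehog receptor gene ptc, which is also a target of the pathway, had 15.8, 10.1 and 14.7 CPM in testes, against 71.5, 47.9 and 72.1 CPM in ovaries (log2 fold change -2.21 ± 0.25 (SE), adjusted p = 9.13e-04). The Wnt receptor gene fz had 4.19, 3.46 and 5.13 CPM in testes, against 41.3, 28 and 37.8 CPM in ovaries (log2 fold change -3.03 ± 0.24 (SE), adjusted p = 2.03e-04). Every testis lay below every ovary in both receptor genes, as it did for the receptor gene fz2, at -2.21 ± 0.31 (SE, adjusted p = 0.00200), and the Hedgehog effector gene ci, at -1.77 ± 0.28 (SE, adjusted p = 0.00327).

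In the EGFR pathway 1 of 12 genes was higher and 6 were lower. The receptor gene Egfr had 30.8, 21.0 and 25.4 CPM in testes, against 122, 72.5 and 129 CPM in ovaries (log2 fold change -2.04 ± 0.27 (SE), adjusted p = 0.00160). The ligand gene Krn had 32.3, 45.1 and 29.9 CPM in testes, against 18.0, 18.9 and 15.3 CPM in ovaries (log2 fold change 1.04 ± 0.18 (SE), adjusted p = 0.00419). Krn was the only member higher in testes, and the feedback inhibitor gene sty and the protease gene rho were lower, at -2.103 ± 0.28 (SE, adjusted p = 0.00167) and -2.04 ± 0.44 (SE, adjusted p = 0.0107). Of 11 JAK-STAT genes none was higher and 4 were lower, with 2 lower without mCherry ovary 1. The kinase gene hop had 47.6, 27.8 and 64.8 CPM in testes, against 224, 173 and 207 CPM in ovaries (log2 fold change -2.07 ± 0.34 (SE), adjusted p = 0.00378), and the target and inhibitor gene Socs36E was lower, at a log2 difference of -1.74 ± 0.20 (SE, adjusted p = 8.82e-04). Of 13 BMP genes none was higher and 3 were lower (23.1%, against 20.8% of all genes tested), with 5 lower once the length trend was removed within groups. The ligand gene dpp was lower, at a log2 difference of -0.90 ± 0.19 (SE, adjusted p = 0.00906) and the glypican gene dally at -1.98 ± 0.28 (SE, adjusted p = 0.00204).

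Of 12 ecdysone genes none was higher and 7 lower, with a median of -1.51. Their median exon length was 7158 bases, against 2022 bases over all genes. With the length trend removed over all 6 libraries 2 were higher and 7 lower, with a median of -0.92. The lower count was 5 without testis 1, mCherry ovary 1 or mCherry ovary 3. The steroid synthesis gene spo had 0.299, 0.384 and 0.996 CPM in testes, against 9.97, 11.2 and 10.8 CPM in ovaries (log2 fold change -4.17 ± 0.47 (SE), adjusted p = 8.27e-04), and sad, a later enzyme of the same route, was lower, at a log2 difference of -1.96 ± 0.20 (SE, adjusted p = 5.10e-04). The ecdysone response genes Eip74EF and Eip75B were lower, at -2.21 ± 0.31 (SE, adjusted p = 0.00200) and -1.93 ± 0.26 (SE, adjusted p = 0.00164). Of 6 gap junction genes 5 were lower and none higher. The innexin gene ogre had 27.6, 27.7 and 28.5 CPM in testes, against 179, 149.99 and 199 CPM in ovaries (log2 fold change -2.63 ± 0.16 (SE), adjusted p = 6.07e-05). Inx2 had 115.2, 90.8 and 121 CPM in testes, against 390.4, 362 and 364 CPM in ovaries (log2 fold change -1.75 ± 0.18 (SE), adjusted p = 6.15e-04). The testes were tightly grouped for ogre and far below the ovaries.

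**Figure D3:**
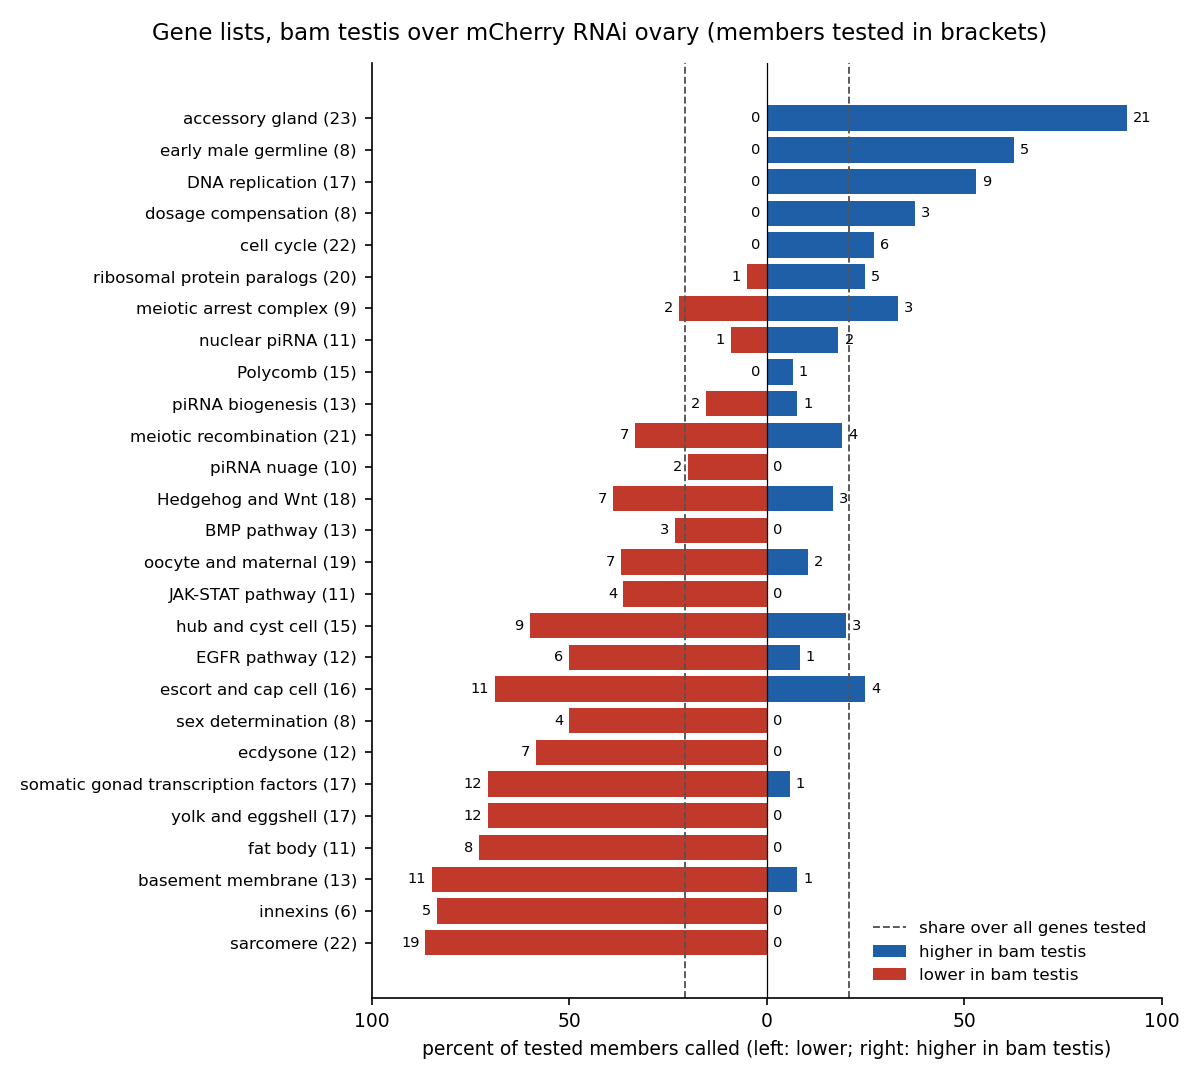
Percent of the tested members of each gene list that were called, with bars to the right for genes higher and bars to the left for genes lower in bam testes than in mCherry RNAi ovaries; the number of genes stands at each bar and the number tested in brackets. Dashed lines mark the shares over all genes tested, 20.9% higher and 20.8% lower; accessory gland genes reach furthest to the right (21 of 23), and muscle, basement membrane and innexin genes reach far to the left.

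Most genes of yolk and eggshell that were tested were lower in testes. Of 17 tested members 12 were lower, 5 not called and none higher, with a median of -5.22, which was -3.37 without testis 2, and the list of 26 summed to 80.1 to 99.3 CPM in testes and 4444 to 5760.0 CPM in the mCherry RNAi ovaries. The yolk protein gene Yp1, at chrX:10053811-10055498, had 0.598, 0.692 and 0.367 CPM in testes, against 493, 629.9 and 511 CPM in ovaries (log2 fold change -9.95 ± 0.29 (SE), adjusted p = 1.49e-05). Yp2 had 1.97, 3.69 and 1.57 CPM in testes, against 1736, 2054 and 1820.0 CPM in ovaries (log2 fold change -9.62 ± 0.40 (SE), adjusted p = 2.12e-05). The vitelline membrane protein gene Vm26Aa had 0.299, 0.845 and 0.314 CPM in testes, against 405, 564 and 538 CPM in ovaries (log2 fold change -10.06 ± 0.41 (SE), adjusted p = 2.12e-05). The lowest ovary was far above the highest testis in each. Not every member was close to 0 in testes. Yp3, named after its values were seen, had 30.4, 36.6 and 24.1 CPM in testes and 1017, 1547 and 832 CPM in ovaries. Vm34Ca and psd, further vitelline membrane genes, were lower, at a log2 difference of -9.18 ± 0.40 (SE, adjusted p = 2.74e-05) and -6.85 ± 0.24 (SE, adjusted p = 1.98e-05). 

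Muscle genes were lower in testes in 19 of 22 cases and higher in none, with a median of -2.66. The list summed to 2144, 2535 and 2119 CPM in testes, against 17153, 20302 and 16176 CPM in ovaries, and no member was without reads in either group. The myosin heavy chain gene Mhc had 231, 202 and 245 CPM in testes, against 3074, 3069 and 2848 CPM in ovaries (log2 fold change -3.71 ± 0.21 (SE), adjusted p = 5.44e-05). The actin gene Act57B had 240.3, 271 and 173 CPM in testes, against 3847, 4986 and 3632 CPM in ovaries (log2 fold change -4.18 ± 0.27 (SE), adjusted p = 8.35e-05). Both were among the 5 genes with the most CPM that were more than 4-fold lower in testes, and no testis came near an ovary. Of 13 basement membrane and integrin genes 11 were lower and 1 higher, with a median of -1.93. The peroxidase gene Pxn, made by blood cells and muscle, had 115.1, 91.1 and 84.4 CPM in testes, against 1374, 1293 and 1244 CPM in ovaries (log2 fold change -3.73 ± 0.20 (SE), adjusted p = 4.98e-05). The laminin gene LanB2 was lower, at a log2 difference of -1.93 ± 0.21 (SE, adjusted p = 6.59e-04) and the integrin gene mew at -2.43 ± 0.26 (SE, adjusted p = 6.65e-04). Ndg, the nidogen gene, was the only member higher, with 11.1, 9.76 and 11.9 CPM in testes and 3.32, 3.24 and 3.69 CPM in ovaries (log2 fold change 1.70 ± 0.21 (SE), adjusted p = 0.00107). What part the amount of muscle in the dissected gonads had in these results was not tested.

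Fat body genes were lower in 8 of 11 cases and higher in none, with 5 lower without testis 1, and the list summed to 198 to 312 CPM in testes and 440.1 to 1049 CPM in ovaries. The lipophorin gene apolpp was lower, at a log2 difference of -2.70 ± 0.30 (SE, adjusted p = 7.37e-04) and the larval serum protein gene Lsp1gamma at -3.28 ± 0.52 (SE, adjusted p = 0.00325). Of 10 hemocyte genes 2 were higher and 4 lower, and the list summed to 789 to 923 CPM in testes and 2068 to 2159 CPM in ovaries. The scavenger receptor gene crq was higher, at a log2 difference of 0.80 ± 0.15 (SE, adjusted p = 0.00610) and the prophenoloxidase gene PPO2 at 0.91 ± 0.19 (SE, adjusted p = 0.0101), while the phagocytic receptor gene NimC4 was lower, at -1.62 ± 0.25 (SE, adjusted p = 0.00284). Of 5 genes of the oviduct and sperm storage organs 1 was higher and 3 lower. The octopamine receptor gene Oamb had 5.86, 6.38 and 4.87 CPM in testes, against 45.0, 28.4 and 37.8 CPM in ovaries (log2 fold change -2.69 ± 0.21 (SE), adjusted p = 1.69e-04). SPR, the receptor of the male sex peptide, had 0.538, 0.307 and 0.262 CPM in testes, against 21.2, 13.8 and 23.1 CPM in ovaries (log2 fold change -5.67 ± 0.37 (SE), adjusted p = 8.62e-05). Both receptor genes had every testis far below every ovary, while the matrix protease gene Mmp1 was higher in testes, at 1.89 ± 0.16 (SE, adjusted p = 2.62e-04). What part these other cell types had in the differences was not tested.

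Among abundant genes more than 4-fold higher in testes, CG18628, at chr3L:10639740-10640136, had the most CPM. CG18628 had 43728, 65657 and 24989 CPM in testes, against 492, 439.7 and 200.5 CPM in ovaries (log2 fold change 6.88 ± 0.61 (SE), adjusted p = 2.94e-04). Jhbp5, a gene named for juvenile hormone binding, had 9896, 13873 and 6091 CPM in testes, against 12.2, 17.0 and 12.9 CPM in ovaries (log2 fold change 9.47 ± 0.46 (SE), adjusted p = 3.70e-05). Testis 2 was the highest and testis 3 the lowest library for both genes, and both groups stayed far apart. The metallothionein gene MtnA had 8583, 13729 and 4820.3 CPM in testes, against 338, 422 and 299.5 CPM in ovaries (log2 fold change 4.67 ± 0.43 (SE), adjusted p = 3.66e-04). Arc1, a capsid-forming protein gene of retrotransposon origin, had 3739.6, 5223 and 2596 CPM in testes, against 68.6, 144 and 59.2 CPM in ovaries (log2 fold change 5.40 ± 0.49 (SE), adjusted p = 3.42e-04). GstS1, given above, completed the 5 with the most CPM.

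The largest differences lay in genes almost without reads in 1 group. The noncoding RNA lncRNA:CR43684, at chr3L:15062207-15062622, had 1443, 2148 and 624 CPM in testes and no read in any mCherry RNAi ovary, which made it at least 11302-fold higher at a floor of 3 reads per library. CG42828 had 172, 224 and 61.8 CPM in testes and 1 read over the 3 ovaries, a ratio of 11090.0 with a 95% exact counting interval of 1990.0 to 438029. Such intervals and floors cover counting error only. In the other direction, CG43134 had 1.56, 2.54 and 0.681 CPM in testes, against 3909.8, 5170.3 and 3076 CPM in ovaries (log2 fold change -11.35 ± 0.60 (SE), adjusted p = 4.63e-05), and CG13299 had 0.120, 0.307 and 0.157 CPM in testes, against 209.8, 229 and 157 CPM in ovaries (log2 fold change -9.998 ± 0.35 (SE), adjusted p = 1.98e-05). Each testis held almost no reads of either gene, and the groups were far apart. Osi19 had no read in testes and 9.86, 7.38 and 11.4 CPM in ovaries, at least 50.55-fold lower in testes. A further abundant gene, FBgn0261451, which the annotation used did not name, had 174, 92.5 and 294 CPM in testes, against 2344, 1655 and 2360.2 CPM in ovaries (log2 fold change -3.46 ± 0.48 (SE), adjusted p = 0.00191).

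Transcripts of the male accessory gland were also higher in the testis libraries. This gland is an organ of the seminal tract next to the testis that makes seminal fluid proteins. Of 23 tested accessory gland and ejaculatory duct genes 21 were higher in testes and none lower, with a median of 8.94. The list of 29 summed to 597, 3824 and 261 CPM in testes, against 26.5, 30.8 and 15.9 CPM in the mCherry RNAi ovaries, and 7 of its genes had no read in any of these ovaries. Testis 2 thus held more of these transcripts than the other testes by a wide margin. Without testis 2 the median was 5.75. The number of higher genes was 11 without mCherry ovary 1, 13 without mCherry ovary 2, 13 without mCherry ovary 3 and 13 in DESeq2. Acp36DE, a sperm storage protein gene, had 80.1, 797 and 32.7 CPM in testes, against 0.267, 0.341 and 0.130 CPM in ovaries (log2 fold change 10.17 ± 1.63 (SE), adjusted p = 0.00347). The near-identical Mst57D genes (Mst57Da, Mst57Db and Mst57Dc), taken as a family, ranged over 9.57 to 33.4 CPM in testis 1, 164 to 769 CPM in testis 2 and 5.55 to 22.6 CPM in testis 3, and none exceeded 0.0382 CPM in an ovary. Est-6, an esterase gene of the ejaculatory duct, carried most of the ovary sum, with 266, 128 and 132 CPM in testes and 20.7, 24.9 and 10.4 CPM in ovaries (log2 fold change 3.25 ± 0.46 (SE), adjusted p = 0.00208). What part accessory gland tissue had in the other differences was not tested; for CG15930, Phf7, Sxl, roX1, RpL22-like, Yp1 and Mhc the call held without testis 2.

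Genes of the X chromosome and of chromosome 4 were lower more often than those of the large autosomes. On the X, 195 of 1685 tested genes were higher (11.6%) and 530 lower (31.5%), with a median log2 fold change of -0.37. On chromosome 4, 2 of 87 were higher (2.30%) and 37 lower (42.5%), with a median of -0.77. On the arms of chromosomes 2 and 3, 1869 of 8033 were higher (23.3%) and 1468 lower (18.3%), with a median of 0.10. The count of lower X genes was 333 both without testis 1 and without mCherry ovary 1.

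Each testis set against the mean of the ovaries gave a median on the X of -0.39, -0.39 and -0.37, against 0.06, 0.09 and 0.07 on the large autosomes. The 3 testes were close to each other in this. On chromosome 4 the medians were -0.89, -0.99 and -0.36, with testis 3 apart. Within the 4 length classes from shortest to longest, the X median was -0.04, -0.22, -0.39 and -0.62, against 0.41, 0.23, 0.02 and -0.22 on the large autosomes. The X lay below the autosomes in each class. Over the alternatives tried, the X median ranged from -0.47 to -0.30 and that of chromosome 4 from -1.04 to -0.43. The values of -0.30 and -0.43 came with the length trend removed over all 6 libraries. Tested genes of chromosome 4 had a median exon length of 4083 bases, against 1965 bases on the large autosomes. A lower X in bulk libraries can reflect germ cells, somatic cells or both, which cannot be told apart here.

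**Figure D4:**
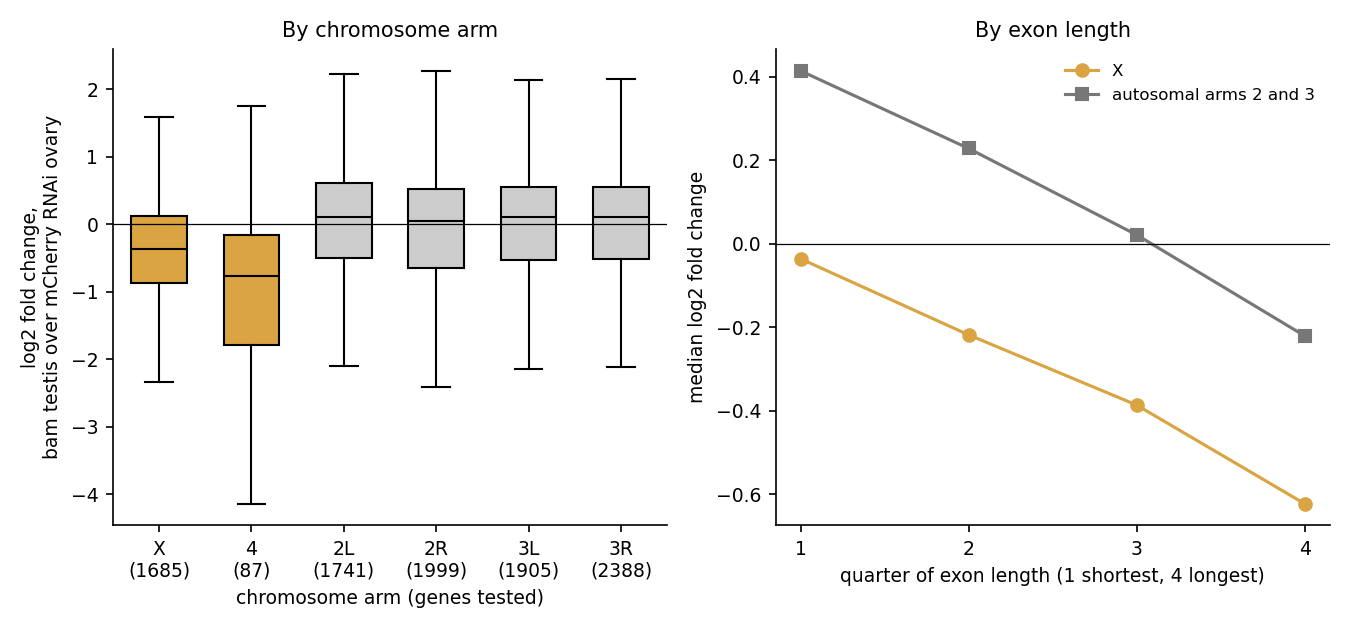
The left panel gives the log2 fold change of bam testes over mCherry RNAi ovaries by chromosome arm, with boxes from the lower to the upper quartile, a line at the median, whiskers to the furthest gene within 1.5 box lengths and genes beyond them not drawn. The right panel gives the median in each of 4 equal classes of exon length for the X and for the arms of chromosomes 2 and 3; the X lies below the autosomal arms in every class, and chromosome 4 has the lowest box.

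The mCherry RNAi ovaries are a second control set beside the bam ovaries without RNAi, and the testis libraries are shared by both sex comparisons. Against the bam ovaries, 1594 of 9738 genes tested were higher in testes (16.4%) and 1592 lower (16.3%). Between the control sets, 376 of 9940 genes were higher in the mCherry RNAi ovaries (3.78%) and 231 lower (2.32%) than in the bam ovaries, 6.11% together. In DESeq2 these counts were 739 and 522.

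The main sex markers had log2 fold changes of the same sign against both sets of ovaries. CG15930 had a log2 fold change of 4.75 for testes over mCherry RNAi ovaries and 4.12 for testes over bam ovaries, Phf7 2.09 and 2.06, Sxl -2.68 and -2.46, roX1 7.30 and 7.57, and RpL22-like 5.47 and 5.30. None of these 5 genes passed the test between the control sets, with adjusted p of 0.0859 for CG15930, 0.959 for Phf7, 0.384 for Sxl, 0.718 for roX1 and 0.696 for RpL22-like. CG15930 nonetheless had 21.6, 29.3 and 23.6 CPM in bam ovaries, all above the mCherry RNAi ovaries (13.5, 17.1 and 18.4 CPM). The bam transcript was lower in the mCherry RNAi ovaries than in bam ovaries, at 5.85, 4.10 and 5.52 CPM in mCherry RNAi ovaries and 10.04, 9.11 and 9.90 CPM in bam ovaries (log2 fold change -0.92, adjusted p = 0.0414). The testis excess of bam was accordingly 2.18 against the mCherry RNAi ovaries and 1.25 against the bam ovaries.

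Some calls turned on which ovaries served as the control. The maternal alpha tubulin gene alphaTub67C had 14.8, 7.76 and 16.3 CPM in testes, 6.30, 5.16 and 7.17 CPM in the mCherry RNAi ovaries and 30.4, 26.1 and 34.9 CPM in bam ovaries. The testes lay between the control sets, so the gene was higher against the mCherry RNAi ovaries (log2 fold change 1.10 ± 0.33 (SE), adjusted p = 0.0359) and lower against bam ovaries (log2 fold change -1.22, adjusted p = 0.0269). The mCherry over bam ovary difference, which is the difference of these effects, was -2.30 ± 0.18 (SE, adjusted p = 0.00172). The call against the mCherry RNAi ovaries was lost without testis 1 (adjusted p = 0.101), testis 3 (0.0744), mCherry ovary 1 (0.103), mCherry ovary 2 (0.101) or mCherry ovary 3 (0.0734).

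Taf12L had 2.43, 2.47 and 3.64 CPM in bam ovaries and was lower in the mCherry RNAi ovaries than there (log2 fold change, mCherry over bam ovaries, -1.83, adjusted p = 0.0223), and the vitelline membrane gene Vml, with 0, 0.154 and 0.105 CPM in testes, 59.7, 69.7 and 94.3 CPM in mCherry RNAi ovaries and 22.1, 20.6 and 6.63 CPM in bam ovaries, was higher in the mCherry RNAi ovaries than in bam ovaries (log2 fold change 2.17, adjusted p = 0.0341). For mtrm the bam ovaries had 9.43, 11.4 and 11.8 CPM, close to the testes, so its excess over the mCherry RNAi ovaries had no counterpart there (log2 fold change, testes over bam ovaries, -0.12, adjusted p = 0.632; mCherry over bam ovaries -2.31, adjusted p = 0.00381). CG6034 had 3.71, 6.38 and 3.30 CPM in testes, 0.344, 0.341 and 0.348 CPM in the mCherry RNAi ovaries and 5.00, 3.29 and 6.79 CPM in bam ovaries, again with the mCherry RNAi ovaries apart (log2 fold change, mCherry over bam ovaries, -3.85, adjusted p = 0.00275). The iron transport gene Tsf1, a fat body marker, had 39.2, 62.8 and 30.4 CPM in testes, 117, 293 and 172 CPM in the mCherry RNAi ovaries and 1009, 1093 and 1132 CPM in bam ovaries. It was lower in testes against either set, at log2 fold changes of -2.14 against the mCherry RNAi ovaries and -4.63 against bam ovaries.

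Among the testes and both sets of control ovaries, several genes had reads mainly in the mCherry RNAi ovaries. CG30076 had 0.0598, 0 and 0 CPM in testes, 16.3, 19.0 and 18.9 CPM in the mCherry RNAi ovaries and 0.286, 0.294 and 0.214 CPM in bam ovaries (log2 fold change, mCherry over bam ovaries, 6.06, adjusted p = 7.40e-05). The muscle adaptor gene Lasp had 0.0598, 0 and 0.105 CPM in testes, 17.0, 13.7 and 17.9 CPM in the mCherry RNAi ovaries and 0.143, 0.176 and 0.160 CPM in bam ovaries (log2 fold change, mCherry over bam ovaries, 6.62, adjusted p = 7.60e-05). CG12522, CG18853 and CG31683 had the same pattern, with at most 0.262 CPM in a testis, 5.92 to 18.9 CPM in the mCherry RNAi ovaries and at most 0.238 CPM in a bam ovary. For these 5 genes no bam ovary and no testis exceeded 0.294 CPM, so their large testis to mCherry RNAi ovary differences were not differences between all bam ovaries and testes. Reads of some were not particular to the mCherry RNAi ovaries. The Sxl RNAi ovaries averaged 10.98 CPM for CG12522, 4.78 CPM for CG18853 and 9.24 CPM for CG31683, but 0.567 CPM for CG30076. Marker genes of laboratory strains also differed. The body pigment gene y had 13.9, 16.2 and 10.2 CPM in testes, 3.17, 2.18 and 3.09 CPM in the mCherry RNAi ovaries and 0.190, 0.176 and 0.642 CPM in bam ovaries. The eye pigment transporter gene w had 11.6, 10.5 and 7.86 CPM in testes, 64.4, 59.2 and 63.3 CPM in the mCherry RNAi ovaries and 58.5, 71.5 and 95.3 CPM in bam ovaries, and passed no test between the control sets (adjusted p = 0.420). The eye pigment enzyme gene v was higher in the mCherry RNAi ovaries than in bam ovaries, with 4.28, 3.46 and 3.95 CPM in mCherry RNAi ovaries and 0.238, 0.529 and 1.18 CPM in bam ovaries (log2 fold change 2.58, adjusted p = 0.0309). What part strain background had in these genes was not tested.

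**Figure D5:**
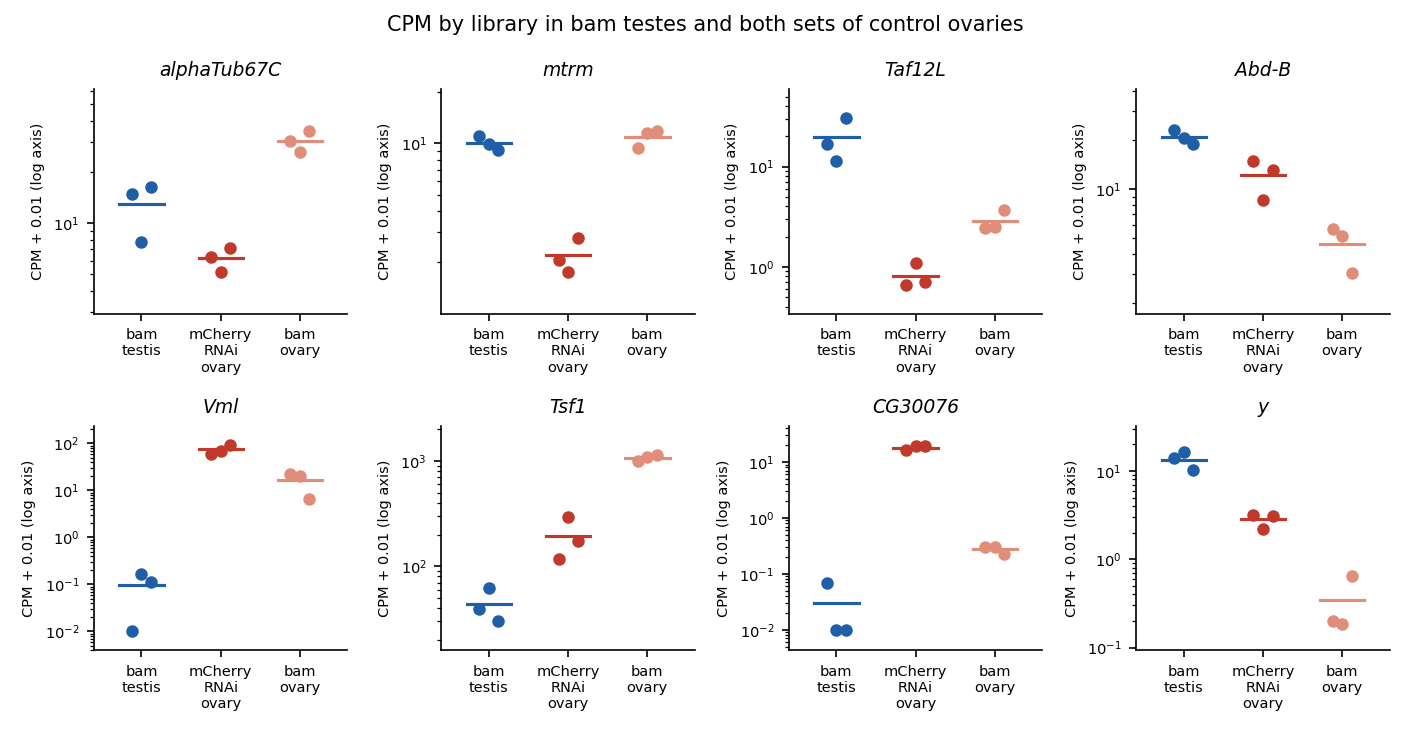
CPM by library for genes that differed between the sets of control ovaries, with bam testes on the left, mCherry RNAi ovaries in the middle and bam ovaries without RNAi on the right; each point is a library, each bar is a group mean and the y axis is CPM + 0.01 on a log scale. For alphaTub67C the testes lay between the control sets, and for CG30076 only the mCherry RNAi ovaries had more than a trace of reads.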

How the data were processed

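Whole gonads were dissected, and polyA RNA was sequenced from libraries made with the Illumina TruSeq RNA v2 kit from 200 ng of RNA, per the labels' protocols. The deposited files hold raw read counts per gene ID, which the authors made with HTSeq 0.9.1 after alignment with TopHat2 2.1.1 and Bowtie2 2.2.9 to build BDGP6, per the submitters' processing notes; FastQC and DESeq are also named there. The counting settings and strand option were not given in the sources used here, so reads of overlapping, antisense or near-identical genes may be misassigned. The kit does not mark strand. The 5 summary lines of each file, 12.0 to 17.1% of reads in these libraries, entered neither library sizes nor tests. Symbols, exon lengths and coordinates came from an Ensembl BDGP6 annotation, which named 17253 of 17559 IDs and may be of another release than the authors used.

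For each comparison its 6 libraries alone were fitted in edgeR 4.0.16 (TMM, filterByExpr, robust quasi-likelihood F test) in R 4.3.3, without a replicate block, and p-values were adjusted by Benjamini-Hochberg over all genes tested. A standard error is the log2 fold change divided by the square root of F. CPM values used 1 TMM scale over all 12 libraries. Counts for testes over mCherry RNAi ovaries were simulated over 10022 genes, with 100 genes changed 2-fold and 100 changed 4-fold. Of these, 34% of genes changed 2-fold and 94% of those changed 4-fold were recovered. Replicates of a group differed by more than counting noise, and p-values measure the spread between these replicates.

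The members and gene lists were chosen with earlier results of these data known. Genes named were msl-2, bam, Phf7, CG15930 and Sxl, the 10 genes per direction with the largest change, without overlap and with a mean of at least 5 CPM, the 5 most abundant over 4-fold in each direction, up to 4 members per list and direction with the smallest p, every member of lists of up to 10 genes, and the 5 largest changes per direction between the ovary sets; from these the text describes a part (1 gene is not reported here), and vig2, Hsp68, Yp3 and Wnt4, chosen after their values were seen, stand outside it. The alternatives were other scalings, DESeq2 1.42.0, other filters, all 12 libraries in 1 fit, a 2-fold rule, a replicate block, leaving out each library and, chosen after seeing the data, removal of the length trend and leaving out both second libraries. The Sxl RNAi ovaries were used only for the common scale, the joint fit and the mean CPM of CG12522, CG18853, CG31683 and CG30076.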

Additional observations from a re-analysis of the deposited data

Results flagged for a closer look

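The maternal alpha tubulin gene alphaTub67C stood out because its difference between testes and ovaries had opposite directions with the 2 sets of control ovaries. The log2 fold change of the mCherry RNAi ovaries over the bam ovaries, which is the difference between these effects, was -2.30 ± 0.18 (SE, adjusted p = 0.00172, edgeR's quasi-likelihood test with Benjamini-Hochberg adjustment). It had 14.8, 7.76 and 16.3 CPM in testes, 6.30, 5.16 and 7.17 CPM in the mCherry RNAi ovaries and 30.4, 26.1 and 34.9 CPM in bam ovaries, so all 3 mCherry RNAi ovaries were below all 3 bam ovaries.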

How the results depend on the processing

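Under a 2-fold rule the calls for testes over mCherry RNAi ovaries numbered 1053 higher and 2647 in all, X genes lower 299, testes over bam ovaries 964 higher and mCherry over bam ovaries 136 lower. Leaving out each library in turn gave 1216 to 2366 higher, 1469 to 2422 lower and 2701 to 4788 in all for testes over mCherry RNAi ovaries, and 333 to 607 X genes lower. In mCherry over bam ovaries DESeq2 gave 739 higher, 522 lower and 1261 in all. With the replicate number as a block the counts were 2701 higher and 2619 lower for testes over mCherry RNAi ovaries, 826 higher, 870.0 lower and 1696 in all for testes over bam ovaries, and 57, 36 and 93 for mCherry over bam ovaries. Deviations of same-numbered testes and mCherry RNAi ovaries correlated at 0.00676, 0.489 and 0.397, and those of other pairs at -0.559 to 0.295. These values did not settle whether same-numbered libraries were paired, and the labels give only the number. The other planned settings, and the added removal of the length trend, kept each total count of calls within 1.5 times. With both second libraries left out 2139 were higher and 2305 lower. None of the 147 named genes refitted turned its direction under a setting that tested it (vig2, Hsp68, Yp3 and Wnt4 were not among them). Of 143 named calls 133 held without testis 1, and 134 to 141 without any other single library; the 2-fold rule kept 123. Outside the single leave-outs and the 2-fold rule, AGO3, Hsp70Ba and S-Lap1 lost their calls with both second libraries left out. Abd-B lost its call with the length trend removed within groups, and Mst57Db with no filter and with the length trend removed over all 6 libraries. S-Lap1 also lost its call in DESeq2 and with no filter, and Hakai and Mettl14 with upper-quartile scaling. The causes of these shifts were not tested. Genes changed 2-fold were recovered at 34% in simulated counts. That simulation changed 100 genes 2-fold and 100 genes 4-fold and gave 134 calls, against 4177 in the data. Recovery at an adjusted p depends on how many genes change, so 34% does not measure recovery in the data.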

Other observations

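Mitochondrial ribosomal protein genes were all higher in testes where they were called. Of 70 tested 24 were higher (34.3%) and none lower, with a median log2 fold change of 0.49, against 20.9% higher and a median of 0.01 over all genes. Against the bam ovaries without RNAi 4 of 70 were higher and none lower, beside 16.4% higher over all genes. Their median exon length was 783 bases, against 2022 bases over all genes, and among genes of 55 to 1235 bases 31.2% were higher, with a median of 0.36. Small nucleolar RNAs, which guide the chemical modification of ribosomal RNA and lie mostly in introns of other genes, went the other way, with 13 of 23 lower in testes and none higher (median -1.33). Libraries were made from polyA RNA, which these RNAs mostly lack. Of 297 tested noncoding RNA genes 55 were higher and 86 lower, with a median of -0.42, and lncRNA:CR43684 was at the top of that class.

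Few heat shock genes were called between the groups, 6.25% in each direction against 20.9% higher and 20.8% lower over all genes tested. Several heat shock genes varied widely among libraries of a group. Of 16 tested 1 was higher, Hsp60C, and 1 lower, Hsc70-1 (log2 fold change -1.58, adjusted p = 0.00724), with 3 lower without mCherry ovary 3. Their summed level was 17523, 21221 and 14666 CPM in testes and 38759, 21144 and 14069 CPM in the mCherry RNAi ovaries, with the first of these ovaries apart. Hsp68 alone had 377, 1087 and 200.3 CPM in testes and 4431, 1007 and 233 CPM in ovaries. Hsp70Ba, which is outside this list and has near-identical copies between which reads may be split, had 0.419, 1.31 and 0.157 CPM in testes and 126, 23.1 and 10.2 CPM in the mCherry RNAi ovaries (log2 fold change -6.51 ± 1.26 (SE), adjusted p = 0.00712), a call lost with both second libraries left out (adjusted p = 0.105). The bam ovaries had 0.714, 0.118 and 0.695 CPM of Hsp70Ba, near the testes (log2 fold change, testes over bam ovaries, 0.18, adjusted p = 0.897). Its mCherry RNAi ovaries were above the bam ovaries (log2 fold change 6.66, adjusted p = 0.0256).

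Of 6 tested neural genes 1 was higher and 1 lower, with 2 lower without testis 2 and 4 without testis 3. The synaptic vesicle gene nSyb had 10.1, 12.8 and 10.4 CPM in testes and 2.79, 1.58 and 1.04 CPM in ovaries (log2 fold change 2.62 ± 0.38 (SE), adjusted p = 0.00234), and Syn, a synaptic vesicle phosphoprotein gene, had 2.15, 2.15 and 3.77 CPM in testes and 6.84, 6.87 and 8.17 CPM in ovaries (log2 fold change -1.40 ± 0.31 (SE), adjusted p = 0.0123).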
